A study of Mus musculus with 9 samples.

Results

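The osteoblast class of the mouse joint comprised every barcode column of the deposited joint table whose name began with osteoblast, and these were 58 of 8423 joint columns, or 0.689%. All 58 carried the class name osteoblast-day21, which the sources used here do not explain further. The series reports RNA sequencing of single cells from the joint and from blood. Its labels name Seq-Well, in which cells settle in small wells and are tagged by barcoded beads, for the blood, and no joint sample carries a label of its own. Columns named for arthritic mice 1, 3, 4, 5 and 6 numbered 6233, and columns named for healthy mice 1, 2, 3 and 4 numbered 2190. The 9 samples described with the series are blood of 5 arthritic and 4 healthy female mice of the 129SvE strain. No joint mouse is among them, so the joint columns were taken as 1 pooled sample, and values by mouse name are a description with no test. Neither the way arthritis was induced nor the way classes were called is given in the sources used here.

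Osteoblasts are the cells that build bone. They secrete collagen type I, load it with mineral-binding proteins such as osteocalcin and bone sialoprotein, and supply the phosphatase that lets mineral form. Synovial fibroblasts, their neighbours in the joint, also make collagen, but line the joint cavity, secrete lubricin and release chemokines and proteases when the joint is inflamed. Decorin, Sparc and collagen type I are made by both kinds of cell.

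Values are given as SPM, a scaled signal: the deposited signal of a gene was divided by the total signal of the columns concerned and multiplied by 1000000. They are not scaled by gene length, so levels are compared between columns and never between genes. Total signal was 942020 over the class and 11955 to 21389 per column (median 16522), with 3217 to 5969 genes listed above 0. A single unit of signal is worth 46.8 to 83.6 SPM in a column of the class, and values in that range rest on 1 unit. Several genes that every cell uses, among them mt-Co2 and mt-Co3 of the respiratory chain, are listed at 0 in the class. A value of 0 is therefore given only as listed.

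The 58 columns held only 18 distinct profiles. Exactly 48 columns were identical, gene for gene, to another column of the class, and none was identical to a column of another class. Of the 18 profiles, 7 stood under more than 1 mouse name and 2 under both conditions, so columns and mice of the class are not independent of each other. No barcode of the class was shared between mouse names, against 4 joint columns that shared one elsewhere. Of all 8423 joint columns, 3857 were identical to another. Distinct profiles overlapped too. Among the 78 pairs of profiles in the most numerous set described below, the signal common to both covered 61.1% to 97.1% of the smaller profile (median 73.2%).

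The markers given with the class were present throughout. Col1a1, a chain of collagen type I, had 37667 SPM in the class, against 29.7 SPM in all other joint columns together. It ran over the 58 columns with a lowest value of 4715, a median of 11125 and a highest of 90504 SPM. Col1a2, the partner chain, had 51444 SPM in the class and 34.9 SPM in the other columns, with a lowest column at 6535, a median of 16646 and a highest at 122631 SPM. Sparc, a collagen-binding glycoprotein also called osteonectin, had 23235 SPM in the class and 17.6 SPM in the other columns. Dcn, the proteoglycan decorin, had 4704 and 8.07 SPM in the class and the other columns. The log2 ratios of class over other columns, with a pseudocount of 1 SPM, were 10.26, 10.48, 10.28 and 9.02 for these genes, and every column of the class had signal of each. None of the 6 other classes of 20 columns or more reached 100 SPM of any of them. The nearest values stood in the adipose-white class of 7 columns, with 990.1 SPM of Col1a1 and 705.7 SPM of Dcn.

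**Figure D1:**
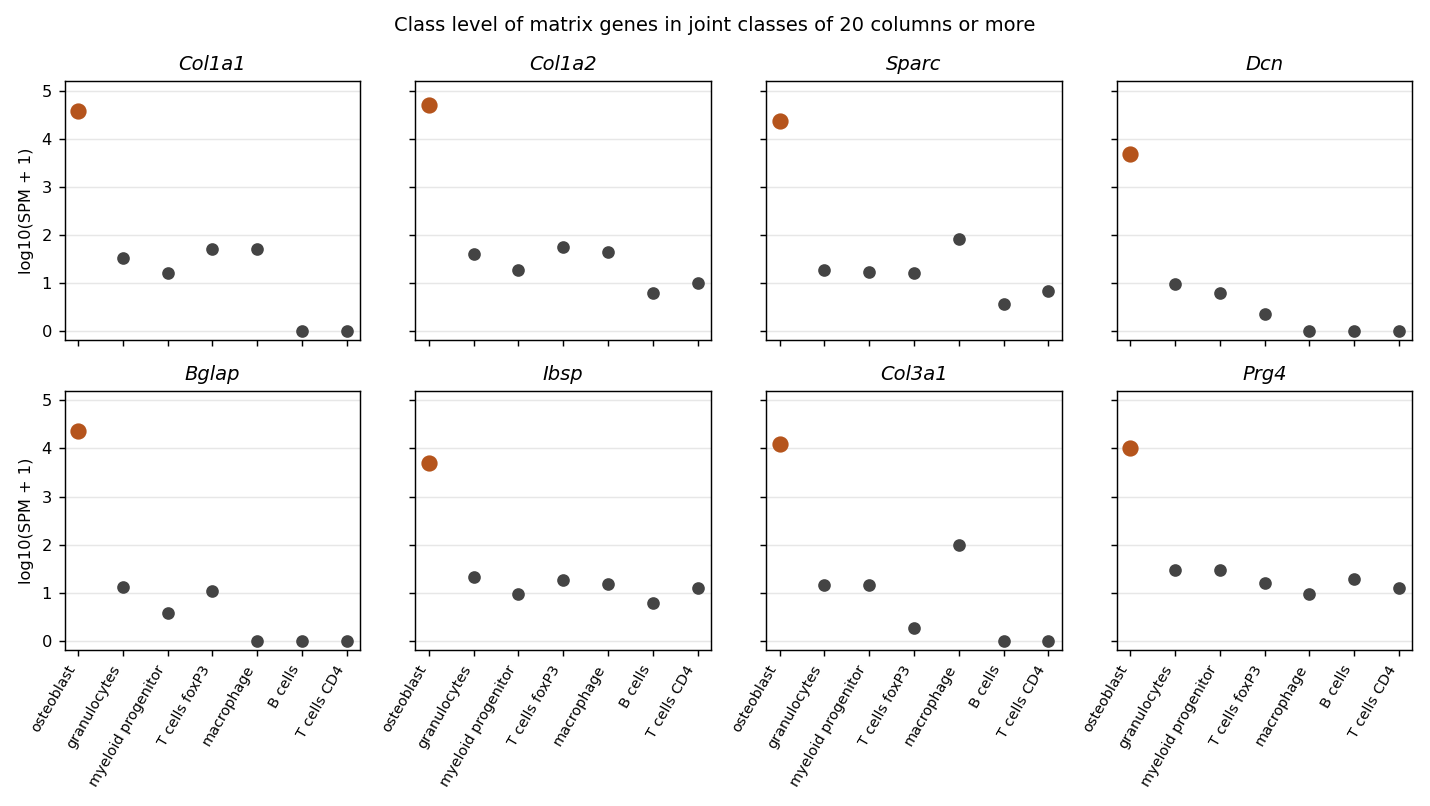
Level of 8 matrix genes (log10 of SPM + 1) in the osteoblast class, left in each panel, and in the 6 other joint classes of 20 columns or more. The osteoblast class stands at 4704 SPM or more for every gene plotted, and no other class plotted reaches 100 SPM.

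Since the class was called from these same columns, its difference from the rest is a description and has no test. Genes were read where the class or the other columns had 20 SPM or more, which left 7684 of 23499. Of these, 1474 (19.2%) were at least 4 times higher in the class than in the other joint columns together, 1069 (13.9%) were at least 4 times lower, and 700 (9.11%) were at least 4 times higher than in each of the 6 other classes. The median log2 ratio over all 7684 was 0.30. Higher genes made up 58.0% of those past the 4-fold limit, and 47.3% when hemoglobin, mitochondrial and rRNA-related genes were left out of the totals. The members below are read against these shares. A gene low in the other columns can pass the 20 SPM filter only through the class, so list counts of higher members partly follow from it.

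The values parted the class into 3 sets of columns. The limits were chosen after the values were seen, so the sets are described and not tested, and they are called by their leading genes. An osteocalcin-rich set (Bglap at 30000 SPM or more) held 17 columns with 2 distinct profiles. A Col3a1-rich set (Col3a1 at 5000 SPM or more) held 36 columns with 13 profiles. The remaining 5 columns, with 3 profiles, are called hemoglobin-rich, because hemoglobin genes took 29.4% to 34.5% of their signal, against 1.51% and 1.93% in the osteocalcin-rich profiles and 0.866% to 1.72% in the Col3a1-rich ones. Both limits lay in wide gaps. Bglap was lowest at 59745 SPM among osteocalcin-rich profiles, and the next profile below, a hemoglobin-rich one, had 10557 SPM. Col3a1 was lowest at 12249 SPM among Col3a1-rich profiles, and the next below had 1983 SPM. The osteocalcin-rich profiles shared 93.1% of the smaller one's signal with each other and 40.8% to 50.7% with the Col3a1-rich profiles.

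Bglap, which encodes osteocalcin, the vitamin K-dependent protein that binds calcium in bone, was one of the genes used to set the columns apart. It had 59745 and 65767 SPM in the osteocalcin-rich profiles, 8966 to 10557 SPM in the hemoglobin-rich ones and 0 to 140.3 SPM in the Col3a1-rich ones. Of 58 columns, 28 were listed at 0, all of them Col3a1-rich. Over the class it stood at 23087 SPM, against 9.98 SPM in the other joint columns, a log2 ratio of 11.04, and without arthritic mouse 3 the class stood at 39252 SPM. Col3a1, a chain of the fibrillar collagen of soft tissue, ran the other way. It was listed at 0 in both osteocalcin-rich profiles, stood at 1070 to 1983 SPM in the hemoglobin-rich profiles and at 12249 to 28224 SPM in all 13 Col3a1-rich profiles. The ranges of these genes in the osteocalcin-rich and Col3a1-rich sets are far apart. The 250 bases before the start of each are shown here, 5′ to 3′ on the strand of the gene, because these are the genes that define the sets. They are taken from RefSeq on GRCm38.p6, at chr3:88384467-88384716 on the minus strand for Bglap and chr1:45311288-45311537 on the plus strand for Col3a1, and capitals mark matches to any of 3 motifs.
Bglap: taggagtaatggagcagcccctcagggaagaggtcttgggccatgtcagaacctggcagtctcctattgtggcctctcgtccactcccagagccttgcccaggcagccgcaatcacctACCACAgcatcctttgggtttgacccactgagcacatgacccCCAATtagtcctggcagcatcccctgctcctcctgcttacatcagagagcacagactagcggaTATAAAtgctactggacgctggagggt
Col3a1: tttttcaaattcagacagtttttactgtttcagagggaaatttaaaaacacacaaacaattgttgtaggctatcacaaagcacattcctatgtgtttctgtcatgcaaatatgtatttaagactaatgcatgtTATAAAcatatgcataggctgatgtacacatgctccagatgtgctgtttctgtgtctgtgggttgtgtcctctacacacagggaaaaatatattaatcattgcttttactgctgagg

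The motifs searched on both strands were ACCACA, the core hexamer bound by RUNX factors, which reads TGTGGT on the other strand, the CCAAT box, which reads ATTGG there, and the TATA box TATAAA, which reads TTTATA there. Their matches do not overlap in these windows. The Bglap window held 1 of each: the RUNX hexamer beginning 132 bases before the start, CCAAT at 90 and TATAAA at 27. The Col3a1 window held TATAAA alone, 117 bases before the start. Among 32851 RefSeq windows of the same length, 14% held the RUNX hexamer, 33.8% held CCAAT and 12.4% held TATAAA. Of the 641 genes with a window that were at least 4 times higher in osteocalcin-rich columns, 8.58% held the hexamer, and of the 1392 that were at least 4 times lower it was 9.55%. Of all 3919 genes compared between the sets that have a window, 9.29% held it, so both shares are near the background. A match is a description of letters and not of a bound site.

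Between the sets, 5522 genes reached 50 SPM in either one. Of these, 1017 (18.4%) were at least 4 times higher in the osteocalcin-rich set and 1905 (34.5%) were at least 4 times lower, which means higher in the Col3a1-rich set. Because 50 SPM can be 1 unit of signal, the counts were also made for the 1061 genes with 200 SPM in either set, and then 97 (9.14%) and 345 (32.5%) passed. The list counts below are given at the floor of 50 SPM first.

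**Figure D2:**
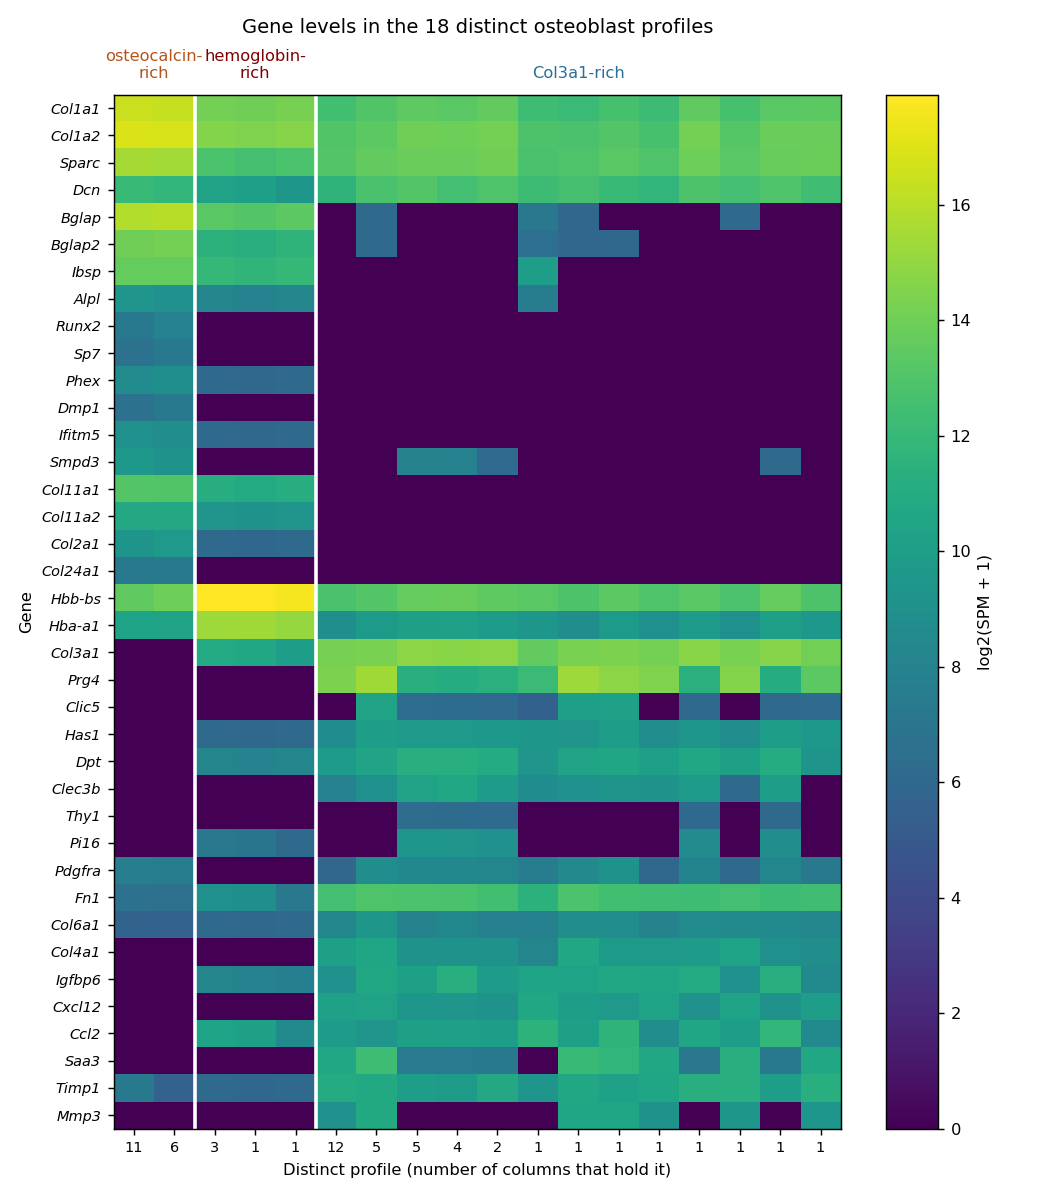
Heat map of selected genes (one per line, log2 of SPM + 1 as colour) in the 18 distinct profiles, with the number of columns that hold each profile on the x axis and white lines between the osteocalcin-rich, hemoglobin-rich and Col3a1-rich sets. Bglap, Ibsp and Col11a1 fill the left blocks, Hbb-bs is brightest in the 3 hemoglobin-rich profiles, and Col3a1, Prg4 and Fn1 fill the right block.

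The genes of mineral and bone matrix stood in the osteocalcin-rich columns. Of 20 members of this list, 18 passed the filter and 16 were at least 4 times higher in the class than in the other joint columns, with a median log2 ratio of 6.61. Between the sets 12 of 19 were at least 4 times higher in osteocalcin-rich columns and 7 were at least 4 times higher in Col3a1-rich ones, and 9 and 5 of 14 at the higher floor. The osteocalcin-rich counts include Bglap, whose place was fixed because the sets were cut on it, and its neighbours Bglap2 and Bglap3. Bglap2 and Bglap3 lie beside Bglap on chromosome 3 and share near-identical sequence with it, so how reads were split among them is uncertain. Bglap2 had 16925 and 18258 SPM in the osteocalcin-rich profiles and at most 93.5 SPM in the Col3a1-rich ones. Ibsp, bone sialoprotein, a nucleator of mineral, had 13277 and 12908 SPM in the osteocalcin-rich profiles and 3316 to 3852 SPM in the hemoglobin-rich ones. Ibsp was listed at 0 in 12 of the 13 Col3a1-rich profiles and stood at 1075 SPM in the other. Alpl, the phosphatase that frees phosphate for mineral, had 539.9 to 658.8 SPM in the osteocalcin-rich profiles, 245.6 to 285.3 SPM in the hemoglobin-rich ones and signal in only 1 Col3a1-rich profile. Ifitm5, a membrane protein known from bone-forming cells, had 441.7 to 506.7 SPM in the osteocalcin-rich profiles and was listed at 0 in all Col3a1-rich ones. Smpd3, a sphingomyelinase needed for normal mineralisation, had 589 to 760.1 SPM in the osteocalcin-rich profiles and 0 to 250.9 SPM in the Col3a1-rich ones.

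The members of the same list that were higher in Col3a1-rich columns are not restricted to bone. They include Enpp1, which makes pyrophosphate, an inhibitor of mineral, with 73.6 to 1029 SPM in the Col3a1-rich profiles, and the glycoprotein Tnc, with 247.7 to 715.7 SPM. Both were listed at 0 in the osteocalcin-rich and hemoglobin-rich profiles. Postn, periostin, had 49.1 and 50.7 SPM in the osteocalcin-rich profiles, 1 unit each, and 116.4 to 2760 SPM in the Col3a1-rich ones. Spp1, osteopontin, had 98.2 to 101.3 SPM in the osteocalcin-rich profiles and up to 2409 SPM in the Col3a1-rich ones. The osteoblast class had 722.9 SPM of Spp1, and 295.8 SPM without arthritic mouse 3, against 3292 SPM in the macrophage class.

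Transcription factors of the lineage were low but followed the same division. Of 12 listed factors, 6 are in the table, and the rest were not analysed here. Among these 6, 5 were at least 4 times higher in osteocalcin-rich columns and none was higher in Col3a1-rich ones. At 200 SPM or more in either set 2 remained to compare, of which 1 was higher in osteocalcin-rich columns. Runx2, the factor required for osteoblasts to form, had 152 and 245.4 SPM in the osteocalcin-rich profiles and was listed at 0 in the other 16 profiles. Sp7, also called osterix, which acts after Runx2, had 101.3 and 147.2 SPM there, 2 and 3 units of signal, and was listed at 0 everywhere else in the joint table. Atf4, which drives amino acid supply and late osteoblast genes, had 98.2 to 101.3 SPM in the osteocalcin-rich profiles and 71.6 to 561 SPM in the Col3a1-rich ones, and its ratio of class to other columns was 0.11 on the log2 scale.

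Osteocyte genes were few. Phex, a peptidase of phosphate control, had 405.4 to 490.8 SPM in the osteocalcin-rich profiles and was listed at 0 in the Col3a1-rich ones. Dmp1, a matrix phosphoprotein of osteocytes and late osteoblasts, had 101.3 to 147.2 SPM in the osteocalcin-rich profiles and was listed at 0 in all others. Pdpn, found on young osteocytes and on many fibroblasts, had 49.1 to 50.7 SPM in the osteocalcin-rich profiles and 187 to 523.8 SPM in the Col3a1-rich ones. All 4 osteocyte genes in the table were at least 4 times higher in the class than in the other joint columns, with a median log2 ratio of 4.88. Only 3 of the 4 were at least 4 times higher than in every other class of 20 columns or more. Pdpn had 885.3 SPM in the macrophage class, against 232.5 SPM in the osteoblast class. Between the sets, 2 of 4 were at least 4 times higher in osteocalcin-rich columns and 1 of 4 in Col3a1-rich ones.

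Fibrillar collagens separated by type. All 10 that passed the filter were at least 4 times higher in the class than in the other columns (median log2 ratio 8.68), and 6 of 10 were at least 4 times higher in osteocalcin-rich columns, against 2 of 10 in Col3a1-rich ones. Col1a1 had 90504 and 84515 SPM in the osteocalcin-rich profiles, 16519 to 18903 SPM in the hemoglobin-rich ones and 4715 to 12469 SPM in the Col3a1-rich ones, with no overlap between the sets. Col1a2 had 114994 to 122631, 22046 to 25679 and 6535 to 18741 SPM in the same order of sets. Col11a1, which sets the width of collagen fibrils, had 8589 and 8716 SPM in the osteocalcin-rich profiles and was listed at 0 in the Col3a1-rich ones, and Col11a2 and Col2a1 did likewise, at 1816 to 1824 and 608.1 to 785.3 SPM. Col24a1, a fibrillar collagen known from developing bone, had 147.2 to 152 SPM in the osteocalcin-rich profiles and was listed at 0 in all others. Col3a1 and Col5a3 were the 2 on the other side. The place of Col3a1 was fixed, because the sets were cut on it, and Col5a3 had 512.5 to 2283 SPM in the Col3a1-rich profiles. Col5a2 was shared, with 2798 to 3192 SPM in the osteocalcin-rich profiles and 701.3 to 2258 SPM in the Col3a1-rich ones.

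Most other collagens on the list stood with Col3a1. Of 10 with 50 SPM in either set, 9 were at least 4 times higher in Col3a1-rich columns and 0 in osteocalcin-rich ones, and 6 of 7 and 0 of 7 at the higher floor. Col4a1, a chain of basement membrane collagen, had 280.5 to 1688 SPM in the Col3a1-rich profiles and was listed at 0 in both other sets. Col6a2, of the microfibrillar collagen around cells, had 280.5 to 604.4 SPM there and was listed at 0 in both other sets. Col22a1, a collagen of tissue junctions, was the exception among these 10, with 304 to 343.6 SPM in the osteocalcin-rich profiles, 122.8 to 142.7 SPM in the hemoglobin-rich ones and 0 to 359.8 SPM in the Col3a1-rich ones. Col13a1, a transmembrane collagen outside the list, ran the other way, with 253.4 and 245.4 SPM in the osteocalcin-rich profiles and 0 listed in the other 16.

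**Figure D3:**
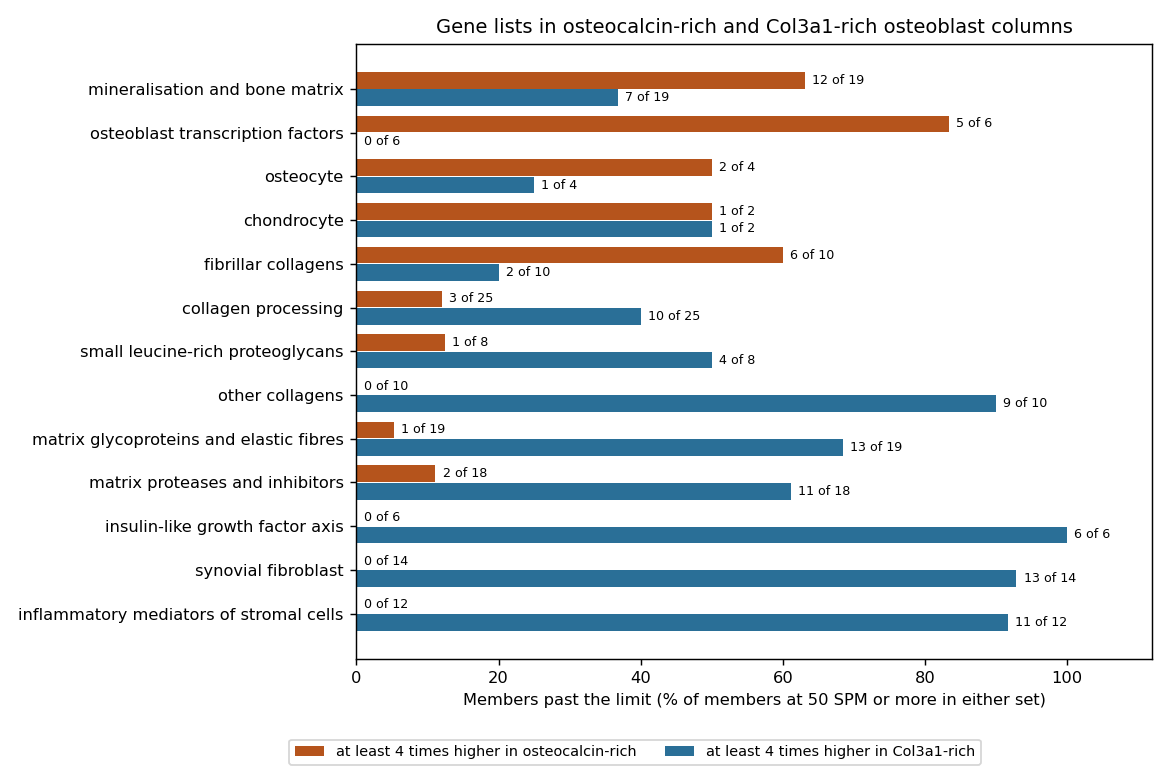
Share of each gene list (x axis, percent of members with 50 SPM in either set, counts beside the bars) that was at least 4 times higher in osteocalcin-rich columns, upper bar of each pair, or in Col3a1-rich columns, lower bar. Transcription factors of the lineage have only upper bars, and the synovial fibroblast, growth factor axis and inflammatory lists have only lower bars. Over all genes the shares were 18.4% and 34.5%. Bglap and Col3a1, on which the sets were cut, are counted in their lists.

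Enzymes that modify and cross-link collagen were present in every set. Of 26 that passed the filter, 21 were at least 4 times higher in the class than in the other joint columns, with a median log2 ratio of 5.68. Between the sets 3 of 25 were at least 4 times higher in osteocalcin-rich columns and 10 of 25 in Col3a1-rich ones, and 0 and 4 of 11 at the higher floor. Lox, lysyl oxidase, which cross-links collagen, had 2258 to 2432 SPM in the osteocalcin-rich profiles, 245.6 to 356.7 SPM in the hemoglobin-rich ones and 561 to 1655 SPM in the Col3a1-rich ones. Its class level of 1464 SPM stood against 0.587 SPM in the other joint columns. Serpinh1, the collagen chaperone HSP47, had 1718 to 1824 SPM in the osteocalcin-rich profiles and 363.2 to 1251 SPM in the Col3a1-rich ones. Plod2, which hydroxylates the lysines that form bone-type cross-links, had 883.4 to 1013 SPM in the osteocalcin-rich profiles and 280.5 to 647.7 SPM in the Col3a1-rich ones. Loxl2, a relative of Lox, was higher in the Col3a1-rich profiles, at 451.7 to 1177 SPM, and stood at 1 unit of signal, 49.1 to 50.7 SPM, in the osteocalcin-rich ones.

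Small leucine-rich proteoglycans, which coat collagen fibrils, differed less between the sets than the collagens named above for Dcn and Bgn. Dcn had 3779 to 4611 SPM in the osteocalcin-rich profiles, 713.3 to 1275 SPM in the hemoglobin-rich ones and 3268 to 8867 SPM in the Col3a1-rich ones, and the first range lies inside the last. Bgn, biglycan, had 932.5 to 962.8 SPM in the osteocalcin-rich profiles and 724.8 to 1075 SPM in the Col3a1-rich ones, again within it. Lum, lumican, had 962.8 to 981.6 SPM in the osteocalcin-rich profiles and 768.8 to 4266 SPM in the Col3a1-rich ones. Ogn and Aspn were listed at 0 in the osteocalcin-rich profiles and reached 1087 and 1127 SPM in the Col3a1-rich ones. Between the sets 1 of 8 was at least 4 times higher in osteocalcin-rich columns and 4 of 8 in Col3a1-rich ones. The adipose-white class of 7 columns, too small for the class comparison, had 368.7 SPM of Ogn, against 274.9 SPM in the osteoblast class. All 7 members past the filter were at least 4 times higher in the class than in every other class of 20 columns or more. The list summed to 16.9 SPM in the other joint columns, so its members passed the 20 SPM filter only through the class.

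Glycoproteins and elastic fibre genes lay mostly on the Col3a1-rich side, with 13 of 19 at least 4 times higher there and 1 of 19 in osteocalcin-rich columns. Fn1, fibronectin, had 98.2 to 101.3 SPM in the osteocalcin-rich profiles, 142.7 to 495.8 SPM in the hemoglobin-rich ones and 2852 to 8204 SPM in the Col3a1-rich ones. Fbn1, fibrillin, was listed at 0 in the osteocalcin-rich profiles and had 225.8 to 2497 SPM in the Col3a1-rich ones. Mfap5, of the same microfibrils, was listed at 0 and had 451.7 to 2819 SPM. Thbs1, thrombospondin, was not on that side: it had 2027 to 2110 SPM in the osteocalcin-rich profiles and 143.9 to 978.6 SPM in the Col3a1-rich ones. The 1 member past the limit in osteocalcin-rich columns was Smoc2, a calcium-binding matricellular protein, with 196.3 to 202.7 SPM in the osteocalcin-rich profiles and 0 listed in all others.

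Genes of synovial and other soft-tissue fibroblasts marked the Col3a1-rich set. Of 18 listed, 13 of 15 past the filter were at least 4 times higher in the class than in the other joint columns (median log2 ratio 4.10). Between the sets, 13 of 14 were at least 4 times higher in Col3a1-rich columns and 0 of 14 in osteocalcin-rich ones, and 9 and 0 of 10 at the higher floor. Prg4, lubricin, the joint lubricant secreted by lining fibroblasts and surface chondrocytes, was listed at 0 in the osteocalcin-rich and hemoglobin-rich profiles and had 2174 to 42314 SPM in the Col3a1-rich ones. Over the class it stood at 10218 SPM, against 28.1 SPM in the other joint columns, and without arthritic mouse 3 at 3945 SPM. Has1, a hyaluronan synthase, had 423.7 to 1053 SPM in the Col3a1-rich profiles, 61.4 to 71.3 SPM in the hemoglobin-rich ones and was listed at 0 in the osteocalcin-rich ones. Dpt, dermatopontin, had 602.2 to 2416 SPM in the Col3a1-rich profiles and was also listed at 0 in the osteocalcin-rich ones. Pdgfra, a receptor of mesenchymal cells, was the exception on the list. It had 196.3 to 202.7 SPM in the osteocalcin-rich profiles and 60.5 to 557.4 SPM in the Col3a1-rich ones, which overlap. Set against the label osteoblast, the osteocalcin-rich columns held the mineral and transcription factor genes. In all Col3a1-rich columns the class markers were present, while Col11a1 was listed at 0 and Ibsp had 0 to 1075 SPM. Those columns go against the label on these genes and are called by their leading gene. Runx2 and Sp7 were listed at 0 there too, but also in the hemoglobin-rich columns. In the osteocalcin-rich profiles they rested on 3 and 5 units of signal for Runx2 and 2 and 3 units for Sp7.

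Proteases and their inhibitors followed, with 11 of 18 at least 4 times higher in Col3a1-rich columns and 2 of 18 in osteocalcin-rich ones. Timp1, an inhibitor of matrix metalloproteinases, had 49.1 to 152 SPM in the osteocalcin-rich profiles, 61.4 to 71.3 SPM in the hemoglobin-rich ones and 654.5 to 2559 SPM in the Col3a1-rich ones. Mmp14, a membrane-bound collagenase, had 98.2 to 101.3 SPM in the osteocalcin-rich profiles and 374 to 1410 SPM in the Col3a1-rich ones. Mmp2, which Mmp14 activates, overlapped, with 245.4 to 253.4 SPM in the osteocalcin-rich profiles and 0 to 429.4 SPM in the Col3a1-rich ones. Fap, a surface protease of activated mesenchymal cells, was higher in the osteocalcin-rich profiles, at 687.1 to 861.5 SPM, against 0 to 256.3 SPM in the Col3a1-rich ones.

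Inflammatory mediators of stromal cells were carried by the Col3a1-rich and hemoglobin-rich columns. Of 24 in the table, 7 of the 13 past the filter were at least 4 times higher in the class than in the other joint columns and 1 was at least 4 times lower (median log2 ratio 2.08). Between the sets, 11 of 12 were at least 4 times higher in Col3a1-rich columns and 0 of 12 in osteocalcin-rich ones. Cxcl1, a neutrophil-attracting chemokine, was listed at 0 in the osteocalcin-rich profiles and had 214 to 566.6 SPM in the hemoglobin-rich ones and 748 to 2362 SPM in the Col3a1-rich ones. Ccl2, which attracts monocytes, was listed at 0, had 356.7 to 1346 SPM and had 376.4 to 3679 SPM in the same order. Cxcl5, another neutrophil attractant, had 215.9 to 495.4 SPM in the Col3a1-rich profiles and was listed at 0 in both other sets. For Ccl2 and Saa3, an acute-phase protein, the macrophage class was higher than the osteoblast class as a whole, which had 750.5 and 983 SPM, against 1225 and 1397 SPM in the macrophage class. Without arthritic mouse 3 the osteoblast class had 484.5 SPM of Ccl2 and 423.3 SPM of Saa3.

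Ligands that act on osteoclasts were likewise on that side, with 3 of 3 at least 4 times higher there. Cxcl12, the chemokine that retains blood-forming cells and guides osteoclast precursors, had 537.3 to 1683 SPM in the Col3a1-rich profiles and was listed at 0 in both other sets. Csf1, which osteoclasts and macrophages need to survive, had 150.6 to 418.2 SPM in the Col3a1-rich profiles and was listed at 0 in the osteocalcin-rich ones. Tnfsf11, the osteoclast-inducing ligand RANKL, was listed at 0 in all 58 columns. Of 9 genes of the insulin-like growth factor axis in the table, all 6 with 50 SPM in either set were at least 4 times higher in Col3a1-rich columns, and 3 of 3 at the higher floor. Igfbp7 had 1211 to 2613 SPM there, Igfbp5 had 301.1 to 2255 SPM and Igfbp6 had 376.4 to 2416 SPM, and these binding proteins were listed at 0 in the osteocalcin-rich profiles.

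Wnt and BMP genes split in both directions. Of the Wnt list, 3 of 7 were at least 4 times higher in osteocalcin-rich columns and 4 of 7 in Col3a1-rich ones. Wisp1, a Wnt target known to promote osteoblast differentiation, had 760.1 to 785.3 SPM in the osteocalcin-rich profiles, 184.2 to 214 SPM in the hemoglobin-rich ones and 0 to 143.9 SPM in the Col3a1-rich ones. Sfrp2, a secreted Wnt modulator, was listed at 0 in both other sets and had 58.2 to 896 SPM in the Col3a1-rich profiles. Bmp3, a ligand that opposes bone formation, had 245.4 to 253.4 SPM in the osteocalcin-rich profiles and 0 to 83.6 SPM in the Col3a1-rich ones. Id3, a direct BMP target, had 1374 to 1824 SPM in the osteocalcin-rich profiles, 675.5 to 779.1 SPM in the hemoglobin-rich ones and 433.5 to 1151 SPM in the Col3a1-rich ones. Pth1r, the receptor of parathyroid hormone, had 147.2 to 304 SPM in the osteocalcin-rich profiles and at most 46.8 SPM in the Col3a1-rich ones.

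The Col3a1-rich profiles varied among themselves, and Prg4 was one gene along which they did. A total of 7 profiles (22 columns) had 10915 to 42314 SPM of Prg4, and 6 profiles (14 columns) had 2174 to 4722 SPM, with none between. The boundary of 10000 SPM was chosen after the values were seen. Mmp3, stromelysin, a protease of inflamed synovium, had 544.7 to 1871 SPM in the Prg4-high profiles and was listed at 0 in every Prg4-low one. Saa3 had 1634 to 5253 SPM in the Prg4-high profiles and 0 to 167.3 SPM in the Prg4-low ones. Ctsk, a collagen-degrading cathepsin, had 301.1 to 787.2 SPM in the Prg4-high profiles and 140.3 to 250.9 SPM in the Prg4-low ones. Sox5, a factor of cartilage and other mesenchyme, had 291 to 431.8 and 46.8 to 83.6 SPM in the Prg4-high and Prg4-low profiles. These ranges do not overlap, as was so for 204 of 5518 genes (3.7%) that were higher in every Prg4-high profile and 267 (4.84%) that were higher in every Prg4-low one.

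Clic5, a protein used as a marker of lining fibroblasts, divided the profiles otherwise. It had 1106 to 1439 SPM in 3 of the 7 Prg4-high profiles, 0 to 75.3 SPM in the other 4, and 46.8 to 83.6 SPM in the Prg4-low ones. Among those 3, the profile with 28984 SPM of Prg4 shared 74.5% to 85.1% of the smaller profile's signal with the 6 Prg4-low profiles and 68.0% to 70.0% with the Prg4-high profiles low in Clic5.

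Pi16, which marks fibroblasts around vessels and beneath tissue linings, was listed at 0 in all 7 Prg4-high profiles and had 403 to 669.2 SPM in 5 of the 6 Prg4-low ones. Timp3, a matrix-bound protease inhibitor, had 0 to 123.9 SPM in the Prg4-high profiles and 268.6 to 501.9 SPM in the Prg4-low ones. Efemp2, which helps assemble elastic fibres, had 58.2 to 185.8 and 280.5 to 418.2 SPM in the Prg4-high and Prg4-low profiles. Over the 13 profiles, Prg4 and Mmp3 had a Pearson r of 0.97 (Spearman rho 0.93) on the log2 scale, and Prg4 and Pi16 had an r of -0.89 (rho -0.83). The points share libraries and much of their signal and fall in 2 groups, so these coefficients describe the profiles only. Of the Prg4-low profiles, 1 stood apart, with 1 column from an arthritic mouse and 21389 units of signal, the highest of the class. It had no Pi16 listed above 0, 1356 SPM of Mmp13, a collagenase, against at most 150.6 SPM in the other 12 profiles, and the 1075 SPM of Ibsp given above. It also had 4675 SPM of the myeloid gene Lyz2, against 359.8 to 1538 SPM in the other 12. The endothelial genes Cdh5, Emcn, Tie1 and Flt1 had 93.5 SPM each in it, 2 units of signal, and were listed at 0 in the other 17 profiles. Plvap had 140.3 SPM in it. Other members of that list did not follow. Tek was listed at 0 in it and had 67.2 to 250.9 SPM in the other 5 Prg4-low profiles, and Pecam1, Kdr, Eng and Vwf were listed at 0 in every profile. Fabp4, of adipocytes and capillaries, had 841.6 SPM in it and was listed at 0 in the other Col3a1-rich profiles. The marrow reticular and adipocyte list, to which Fabp4 belongs, summed to 3039 SPM in it, the most of any profile. Cxcl12 had 1683 SPM in it. Lepr and Adipoq, at 2 and 1 units of signal, were listed at 0 in the other 17 profiles. Cfd, Plin1, Pparg and Cebpa were listed at 0 in every profile. The part of other cells in these values was not tested.

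**Figure D4:**
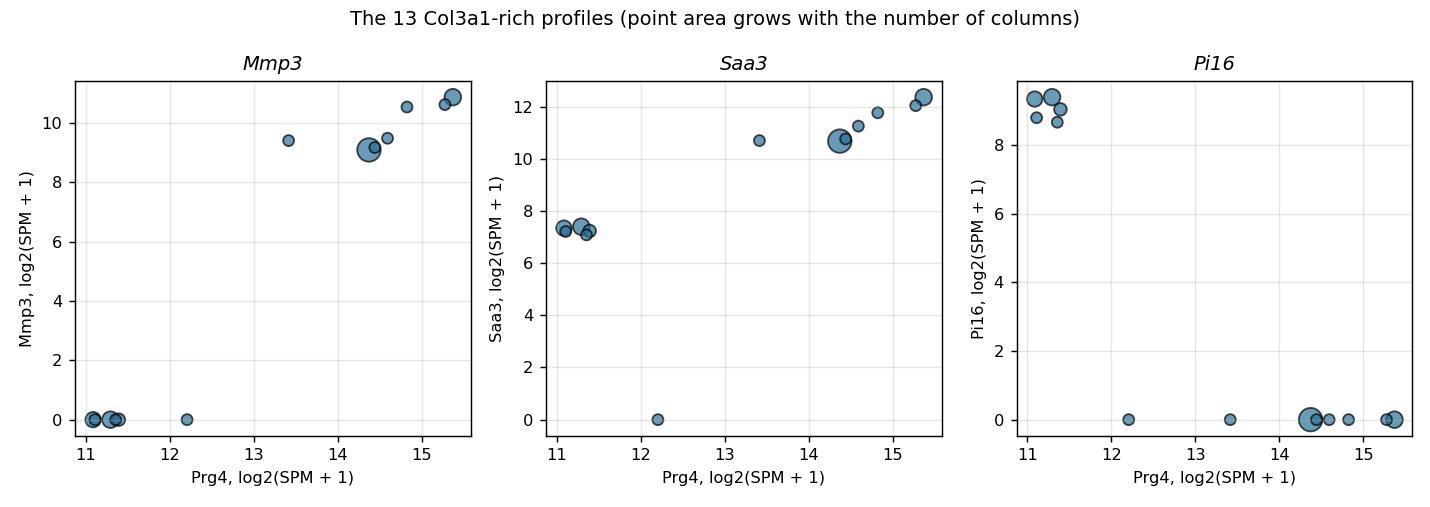
Mmp3, Saa3 and Pi16 against Prg4 (each as log2 of SPM + 1) in the 13 Col3a1-rich profiles, 1 point each, with point area growing with the number of columns. The 7 profiles with 10915 SPM of Prg4 or more have Mmp3 and no Pi16, and 5 of the 6 others have Pi16, all without Mmp3.

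Genes of other cells were present in the class. S100a8, a calcium-binding protein of neutrophils, had 18547 and 31804 SPM in the osteocalcin-rich profiles, 8216 to 11627 SPM in the hemoglobin-rich ones and 3886 to 9802 SPM in the Col3a1-rich ones, against 76849 SPM in the other joint columns. The neutrophil list as a whole took 3.62% and 5.56% of the signal of the osteocalcin-rich profiles, 1.54% to 2.35% of the hemoglobin-rich and 0.619% to 1.94% of the Col3a1-rich ones, and 0 of its 16 members were listed at 0 in the class. Granulocytes made up 77% of all joint columns, so the other joint columns together are mostly granulocytes. Against them the list was low in the class, at 23970 SPM summed against 143722 SPM. Of the 16 members, 11 were at least 4 times lower, with a median log2 ratio of -2.6. Against the median of the other classes the direction turned, as given below. S100a8 had 12939 SPM in the class and 99632 SPM in the granulocyte class, but 625.1 to 8404 SPM in the remaining classes of 20 columns or more. Elane, in contrast, had 100.8 SPM in the class and 1653 SPM in the progenitor class. The macrophage and monocyte list took 0.243% and 0.353%, 0.56% to 0.885% and 0.0504% to 0.715% in the same order, with 3 of 15 members listed at 0, namely Fcgr1, Ms4a7 and Cd163. Of the erythroid list, Hbb-bs, a beta-globin gene, had 210072 to 245886 SPM in the hemoglobin-rich profiles, against 11706 and 16098 SPM in the osteocalcin-rich ones. Over the class it had 28400 SPM, against 154750 SPM in the granulocyte class and 1309 to 311202 SPM over the 6 other classes of 20 columns or more. The list summed to 331420 SPM in the hemoglobin-rich columns, 38055 SPM in the class and 211270 SPM in the other joint columns. In the class as a whole 9 of its 10 members were at least 4 times lower than in the other joint columns. By the list sum, the hemoglobin-rich columns stood above the other 2 sets and above the other joint columns together. Hbb-bs was still higher in the foxP3 class of T cells, at 311202 SPM, than in any hemoglobin-rich profile. The part of these cells in the values of each set was not tested.

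Some genes of other lineages were listed at 0 in the class. A column of the class listed only 3217 to 5969 of the 23499 genes above 0. The counts at 0 are therefore given as listed and do not show that a lineage was absent. For endothelium 4 of 12 genes were listed at 0, Pecam1 and Kdr among them, and the whole list summed to 72.2 SPM in the class and 50.6 SPM in the other columns. By profile the sum was 0 in both osteocalcin-rich ones, 61.4 to 71.3 SPM in the hemoglobin-rich ones and 0 to 654.5 SPM in the Col3a1-rich ones. For T and NK cells 9 of 15 were listed at 0, among them Cd3e, Cd4 and Cd8a, and the list summed to 17 SPM, against 267.9 SPM in the other columns. For smooth muscle and pericytes 4 of 10 were listed at 0, Myh11 and Pdgfrb among them, but the list was not low in the class. It summed to 179.4 SPM in the class, against 35.1 SPM in the other columns. Of its 4 members past the filter, 3 were at least 4 times higher in the class. The median log2 ratio was 4.87 over those 4 and 0.22 over all 10. The osteoclast list summed to 719.7 SPM in the class, against 2742 SPM in the other columns. Its largest members were Ctsk, at 329.1 SPM in the class with its highest values in Col3a1-rich profiles, and Car2, a carbonic anhydrase also found in red cells, at 254.8 SPM and highest in the hemoglobin-rich profiles, at 2027 to 3210 SPM. Of its 10 members 4 were listed at 0, among them Dcstamp and Tnfrsf11a. For chondrocytes 7 of 20 listed genes are in the table and 4 of these, Col9a3, Hapln1, Comp and Cnmd, were listed at 0. Of the remaining 3, Sox6 rested on 2 units of signal in the class, and Col2a1 and Sox5 stood in different sets. Among the genes lowest in the class, Cebpe and Mcpt8, genes of granulocytes and of basophils, were listed at 0 in all 58 columns, against 158.6 and 183.8 SPM in the other joint columns.

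Columns of the class by mouse name were uneven. Arthritic mouse 3 gave 35 of 1521 joint columns (2.3%), and arthritic mice 1, 4, 5 and 6 gave 6 of 1300 (0.462%), 2 of 884 (0.226%), 5 of 1383 (0.362%) and 5 of 1145 (0.437%). Healthy mice 1 and 3 gave 1 of 617 (0.162%) and 4 of 558 (0.717%), and healthy mice 2 and 4 gave 0 of 385 and 0 of 630. Summed, arthritic names held 53 of 6233 columns (0.85%) and healthy names 5 of 2190 (0.228%). A single mouse name supplied 35 of the 53 arthritic columns, and the shares of the other 4 arthritic mice lie within the range of the healthy ones. The difference was not tested, since these mice are not among the described samples and their columns repeat. Without arthritic mouse 3, the class level of Col1a1 was 58346 SPM in place of 37667 SPM, and that of Col1a2 was 79388 SPM in place of 51444 SPM. That of Col3a1 was 6887 SPM in place of 12403 SPM, and that of Ctsk was 196.3 SPM in place of 329.1 SPM.

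The sets were spread unevenly as well. The Col3a1-rich set came under arthritic names only, with 28 columns of mouse 3, 5 of mouse 5, 2 of mouse 1 and 1 of mouse 6, and 0 of 5 healthy columns. The osteocalcin-rich set came under both, with 14 arthritic and 3 healthy columns. Both osteocalcin-rich profiles stood under arthritic and healthy names alike, so arthritic and healthy values of Bglap, Ibsp and every other gene are the same numbers there and give no comparison. The hemoglobin-rich set had 3 arthritic and 2 healthy columns. Over all class columns of a name, Bglap was 45135 SPM in arthritic mouse 1, 11558 in mouse 3, 62804 in mouse 4, 0 in mouse 5 and 45255 in mouse 6, against 59745 SPM in healthy mouse 1 and 39951 in healthy mouse 3. Prg4 was 3517, 14693, 0, 8860 and 6644 SPM in arthritic mice 1, 3, 4, 5 and 6, and was listed at 0 in healthy mice 1 and 3. With 5 healthy columns, of which 3 were identical to an arthritic one, the absence of the Col3a1-rich set from healthy names cannot be set against the spread between mice. Fewer cells of a kind and less RNA per cell cannot be told apart in sums such as these.

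**Figure D5:**
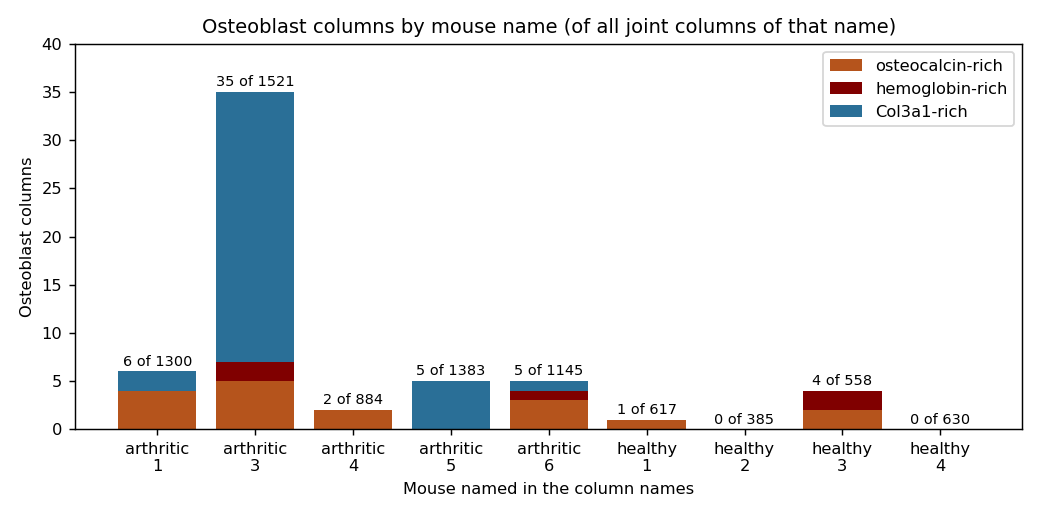
Number of osteoblast columns (y axis) by the mouse in the column name, 5 arthritic names left of 4 healthy ones, stacked by set, with the class and joint column counts above each bar. Arthritic mouse 3 holds 35 columns, 28 of them Col3a1-rich, and no healthy name holds a Col3a1-rich column.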

How the data were processed

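For each gene and barcode column the authors deposited a whole-number signal, with no scaling to a common total. Because columns repeat exactly and overlap, they were not treated as counts of single cells, and no counting interval is given. Per the labels, which describe the blood libraries, polyA RNA was read by Seq-Well and processed by the core Drop-seq protocol against GRCm38.p5. The labelled blood table was not used. For the aligner, the filter on cells and class calling, nothing is given in the sources used here.

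Class, mouse and condition were read from the column names. Signal was summed over columns, divided by the total and multiplied by 1000000 (SPM). Ratios were log2 with a pseudocount of 1 SPM, for genes at 20 SPM or more in the class or the other columns, with a limit of 4-fold and classes of at least 20 columns. No test was made: the class was called from the same values and no joint sample is described. Total signal was 942020 over 58 columns of the class and 130408370 over all 8423 columns. The members and the 36 gene lists were chosen with earlier results of these data known, and the sets of columns after the values were seen.

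Named genes were the class markers, up to 30 genes with the largest ratio to the other columns and up to 20 to the highest class (50 SPM or more in the class), up to 10 with the lowest ratio, and up to 6 members of each list. The text gives part of these, and further list members and genes that part the sets were named after their values were seen. The ratio step was tested on simulated data. Alternatives changed the summary, scaling, pseudocount, filter, columns, genes, comparison classes and mice. Promoter windows are RefSeq's. Python 3.11.15, numpy 2.4.6, pandas 2.3.3, scipy 1.17.1 and matplotlib 3.10.9 were used. A few genes are not reported here.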

Additional observations from a re-analysis of the deposited data

How the results depend on the processing

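The marker levels and ratios, both gene counts and 34 list medians were recomputed under up to 18 alternatives, and the gene counts under 3 more that were chosen after seeing the data. An alternative that left a list with under 3 members, or left its genes out, gave no median: with a filter of 100 SPM 33 of 44 results had a value. A level, ratio or median was called moved when it shifted by at least its SD over the 18 profiles. For the marker levels this SD spans the sets of columns and is wide, so staying within it is a weak check. Col1a1 went from 37667 to 58346 SPM without arthritic mouse 3 and was not called moved. The gene counts have no such SD and were judged by a fixed fold limit. Of 784 values 751 stayed within these limits, 31 moved and 2 turned direction. With a pseudocount of 10 SPM the counts of genes at least 4 times higher were 807 (than the other columns) and 427 (than every class), and the medians were 2.39 for osteoblast transcription factors, 6.74 for fibrillar collagens, 3.05 for collagen processing, 2.61 for limb position, 3.75 for chondrocyte, 2.42 for smooth muscle and -1.71 for T and NK cell genes; with 0.1 SPM the chondrocyte and T and NK medians were 7.08 and -6.54. A filter of 100 SPM gave 424 and 229 genes, a growth factor axis median of 6.97 and a B cell median of -3.06, and no filter gave -0.14 for chondrocyte (the direction turned), 0.22 for smooth muscle and -1.87 for T and NK genes, the number of genes read being what these settings change. Keeping identical columns once gave 3.13 for transcription factors and -2.28 for B cell genes. Set against the median of the other classes, 1489 genes were at least 4 times higher, Dcn had a log2 ratio of 11.48, and the medians were 1.19 for neutrophil genes (the direction turned), 3.15 for Schwann, 1.01 for mast cell and 0.16 for mitochondrial genes. The T and NK median was -4.86, -4.69 and -5.03 with means over columns, median-of-ratios factors and the left-out genes. Leaving out each mouse gave -4.67 to -4.49 for T and NK and 4.81 to 6.29 for chondrocyte genes, 1390 to 1552 genes above the other columns and 659 to 879 above every class. The cause of these shifts was otherwise not tested. The median of all genes was 0.30 as reported, 0.39 with means over columns, 0.13 with median-of-ratios factors and -0.06 with hemoglobin, mitochondrial and rRNA-related genes left out.

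With the osteocalcin-rich columns alone the counts were 1259 and 636, with the Col3a1-rich columns alone 2151 and 941, and without the hemoglobin-rich columns 1552 and 713. Taking each osteoblast name by itself was not run, since there is 1 name. No paired analysis was possible because no result comes from a test and no joint mouse is among the described samples. Depth limits low genes: 1 unit of signal is 46.8 SPM or more in a column, and identical columns add no precision.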

Other observations

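Genes that fix limb position were also higher in the class. All 6 that passed the filter were at least 4 times higher than in every other class of 20 columns or more, with a median log2 ratio of 5.64. The whole list summed to 4.37 SPM in the other joint columns, so members passed the 20 SPM filter only through the class. That count therefore largely follows from the filter. The remaining members in the table, Hoxa9, Hoxc8 and Lhx9, had 7.43, 17 and 0 SPM in the class. Prrx1, a factor of limb mesenchyme, had 49.1 to 50.7 SPM in the osteocalcin-rich profiles and 215.9 to 448 SPM in the Col3a1-rich ones. Hoxc9 had 98.2 to 152 SPM in the osteocalcin-rich profiles and was listed at 0 in the others. Pitx1, a factor of hindlimb identity, was listed at 0 in the osteocalcin-rich profiles and had 0 to 167.3 SPM in the Col3a1-rich ones.

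Growth-related genes differed between the sets. Among proliferation genes, 0 of 20 were at least 4 times higher in the class than in the other joint columns and 4 were at least 4 times lower (median log2 ratio -1.12). Mki67, present in dividing cells, was listed at 0 in both osteocalcin-rich profiles, had 921.1 to 1997 SPM in the hemoglobin-rich ones and had 147.2 to 787.2 SPM in the Col3a1-rich ones. H19, an imprinted long RNA of growing tissue, had 72 to 585.5 SPM in the Col3a1-rich profiles and was listed at 0 in both other sets.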
